A study of Mus musculus with 2 samples.

Results

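Heme, iron and thiol metabolism was followed through 10 genes in the immune cells of MC38 tumors, grown from a mouse colon carcinoma line. They were Hmox1, Slc40a1, Fth1, Ftl1, Slc11a1, Tfrc, Gclm, Txnrd1, Srxn1 and Sod2, taken by symbol from the 32285 genes of the matrices. Single-cell RNA sequencing gave 1 library of cells from untreated tumors (Control) and 1 library from tumors that had received 20 Gy of ionizing radiation once and were collected 4 days later (IR). Both libraries came from WT mice, a name used in the study for Ythdf2 fl/fl animals without Cre, and each was a pool of 4 tumors. The Control record repeats the irradiation protocol although its treatment is given as Control. The protocol names a sort for CD45, a surface protein of immune cells, while the cell type field reads CD45+CD11b+Ly6Chi, and T cells, NK cells and dendritic cells (DCs) were found in both libraries. Ptprc, the gene for CD45, was at 463 CPM in Control and 491 CPM in IR, where CPM is the UMIs of a gene per 1000000 UMIs and each UMI, a random tag added before amplification, stands for a captured molecule of RNA.

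Heme oxygenase opens the heme ring and frees its iron. Free iron is stored in ferritin shells or exported through ferroportin, and iron regulatory proteins tune this by binding a hairpin, the iron-responsive element, in the messages for ferritin, ferroportin and the transferrin receptor. NRF2, a transcription factor that senses oxidants, drives Hmox1, the ferritin genes and enzymes that keep glutathione, thioredoxin and peroxiredoxins reduced, through a promoter motif called the antioxidant response element, and macrophages are known as the cells that recycle heme iron.

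Matches to the hairpin are shown because 4 of the 10 genes carry them. The sequence searched was a C, 5 bases, the loop CAGTGN and 5 bases able to pair with the first 5, in coding transcripts of GENCODE vM21 (GRCm38). It was found in the 5′ UTR of 60 of 50507 transcripts (0.119%) and in the 3′ UTR of 202 of 47832 (0.422%). Capitals mark the loop.
Fth1 5′ UTR, chr19:9982738-9982754, plus strand, 4 of 5 transcripts: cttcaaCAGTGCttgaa
Ftl1 5′ UTR, chr7:45459785-45459801, minus strand, 1 of 2 transcripts: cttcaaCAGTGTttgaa
Slc40a1 5′ UTR, chr1:45925471-45925487, minus strand, 1 of 4 transcripts: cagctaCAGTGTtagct
Tfrc 3′ UTR, chr16:32631225-32631241, plus strand, 1 of 2 transcripts: cggaagCAGTGCcttcc
Tfrc 3′ UTR, chr16:32631604-32631620, plus strand, 1 of 2 transcripts: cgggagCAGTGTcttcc
Tfrc 3′ UTR, chr16:32631669-32631685, plus strand, 1 of 2 transcripts: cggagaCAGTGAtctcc
Tfrc 3′ UTR, chr16:32631716-32631732, plus strand, 1 of 2 transcripts: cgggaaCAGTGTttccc
The storage and export genes held 1 match each ahead of the coding part, and Tfrc held 4 behind it. Hairpins that depart from the pattern searched were not counted. The matches of Fth1 and Ftl1 differ in the last base of the loop alone.

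Promoter windows (250 bases before to 50 after a start site, RefSeq, GRCm38.p6) were at hand for 8 of the 10 genes and were searched on both strands for the core of the antioxidant response element, TGACNNNGC or TGAGNNNGC. No window was at hand for Hmox1 or Slc40a1, so these 2 genes were not searched. The core was in 4 of the 12 windows of the 8 genes (33.3%), those of 4 genes, and in 9128 of all 32851 windows (27.8%). The matches are shown with the core in capitals, on the strand on which it reads.
Srxn1, chr2:152105469-152105497, plus strand, 37 to 45 bases upstream: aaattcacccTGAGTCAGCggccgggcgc
Srxn1, chr2:152105356-152105384, minus strand, 150 to 158 bases upstream: ccagagaggaTGAGTCGGCtctcagtaga
Gclm, chr3:122245413-122245441, minus strand, 126 to 134 bases upstream: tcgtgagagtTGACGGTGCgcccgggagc
Txnrd1, chr10:82859104-82859132, minus strand, 84 to 92 bases upstream: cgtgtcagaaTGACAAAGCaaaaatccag
Slc11a1, chr1:74375141-74375169, plus strand, 44 to 52 bases upstream: tgtgaaattgTGAGCATGCcctcagtgat
Srxn1 was the only gene searched with 2 matches. A match describes the letters and is not a bound site.

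After filtering 4679 barcodes remained in Control, at a median of 7302 UMIs, and 3410 in IR, at 8268.5 UMIs. Cells were assigned to gates by the UMIs of marker genes per 1000 UMIs of the cell. The monocyte gate (Ly6c2, Ccr2 and others above C1q) held 783 Control and 1347 IR cells, and the macrophage gate (C1qa, C1qb, C1qc) 2118 and 429. Cells of the same lineage that passed neither threshold formed another gate, named C1q-low here, with 208 and 107 cells. The mature DC gate held 125 and 156 cells, the T cell gate 412 and 259, and the NK cell gate 243 and 284. The neutrophil gate (27 and 209), mast cell or basophil gate (34 and 64), cDC1 gate (48 and 22) and cDC2 gate (44 and 41) had under 50 cells in at least 1 library, so their levels are given without ratios. A level is the CPM of the summed gate with an exact Poisson 95% interval, and a ratio is IR over Control CPM on the log2 scale with an exact conditional 95% interval. Both cover counting error only, and with 1 library per group no test was possible. A fall in CPM can mean fewer cells that hold a gene or less of it per cell, and these are separated below only where shares of cells are given.

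Of the 9 genes with at least 20 UMIs in the macrophage gate, Hmox1, Fth1, Ftl1, Slc11a1, Gclm, Srxn1 and Sod2 had intervals above 0. Tfrc had one below 0. How many of all genes had such intervals was not counted, so these are given gene by gene only. Fth1, Slc11a1 and Srxn1 were at least 1.5-fold higher in IR (3 of 9, or 2 without the cell that held most of each gene, against 8.19% of 11776 genes with as many UMIs and 5.17% of those with at least 100), and Tfrc at least 1.5-fold lower (1 of 9, against 11.5% and 8.31%). No member was 1.5-fold higher in the monocyte gate (0 of 9, against 7.41% of 11296 genes and 4.54% of those with at least 100 UMIs) or lower (0 of 9, against 7.05% and 3.14%). Slc11a1, Fth1 and Ftl1 had intervals above 0 there and Hmox1 had one below 0. The median log2 ratio of the members was 0.42 in the macrophage gate (-0.06 over all genes counted) and 0.01 in the monocyte gate (-0.04), where it turned below 0 under 5 of 17 alternatives, down to -0.038 without mitochondrial and ribosomal protein genes in the total. When the monocyte score was taken without Ly6c2, Plac8 and Ms4a4c, which moved the border between the gates, the macrophage median was 0.27 and Slc11a1 alone stayed at least 1.5-fold higher. Neutrophil marker genes were at 113 CPM in Control and 326 CPM in IR in the macrophage gate and at 149 and 416 CPM in the monocyte gate, and their part in these ratios was not tested.

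**Figure D1:**
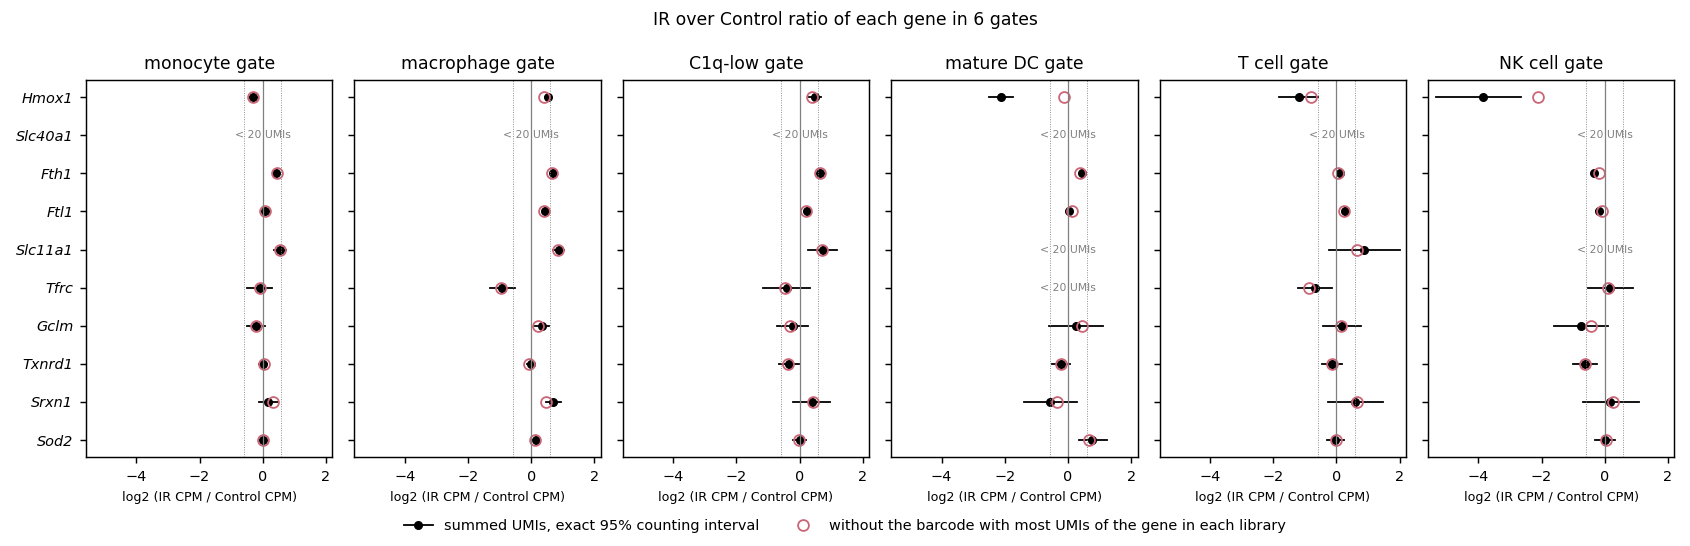
Log2 ratio of IR over Control CPM (x axis) of each gene (rows) in the 6 gates with at least 50 cells in both libraries. Black points with lines are the ratio of summed UMIs with its exact 95% counting interval, open circles leave out the barcode with most UMIs of the gene in each library, and dotted lines mark 1.5-fold. In the macrophage gate Fth1, Slc11a1 and Srxn1 lie to the right and Tfrc to the left, and the low Hmox1 ratio of the mature DC gate moves from -2.11 to -0.13 without that barcode.

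Hmox1 (ENSMUSG00000005413, chromosome 8 of GRCm38, 75093621 to 75100589, plus strand) encodes the inducible heme oxygenase. Its macrophage-gate level was 238 CPM in Control (231 to 244) and 342 CPM in IR (326 to 358), a log2 ratio of 0.52 (0.45 to 0.60). Its monocyte-gate level was 242 CPM (230 to 256) and 196 CPM (189 to 204), a log2 ratio of -0.30 (-0.40 to -0.21). The macrophage and monocyte gates held like levels in Control, with overlapping intervals, and parted in IR. The C1q-low gate was at 271 and 381 CPM, the highest level in IR although its interval overlapped that of the macrophage gate, with a log2 ratio of 0.49 (0.30 to 0.69) that turned to -0.27 with the smaller monocyte score. Over all cells Hmox1 went from 196 to 160 CPM, a log2 ratio of -0.30, but with the IR levels of each gate weighted by the Control mix of gates the ratio was 0.25.

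The share of cells with Hmox1 did not move as its level did. Thinned to 1000 UMIs per cell, 18.9% of Control macrophage-gate cells (17.3% to 20.7%) and 18.6% of IR ones (15.1% to 22.7%) had a Hmox1 UMI, and the intervals overlapped. Without thinning the shares were 59.7% and 60.6%, at medians of 9010.5 and 9877 UMIs. In NK-gate cells, a lymphocyte class not known for Hmox1, the thinned shares were 1.65% and 0.704% and the unthinned ones 4.12% and 1.76%, at medians of 5562 and 5408 UMIs. The median macrophage-gate cell held 97.0 CPM in Control and 96.6 CPM in IR.

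The Hmox1 UMIs sat in a minority of cells. The 5% of macrophage-gate cells with the most of them (106 in Control, 21 in IR) held 41.2% of the Hmox1 UMIs of the gate in Control and 56.1% in IR, and 7.11% and 6.93% of all its UMIs. A single IR cell of 24000 UMIs held 207 of the 1806 Hmox1 UMIs of its gate, and without the top cell of each library the log2 ratio was 0.41. The top 5% of monocyte-gate cells held 49.7% and 52.4%. The macrophage gate thus differed in its top cells, while its median cell was nearly the same. So few Hmox1 UMIs per cell make this median coarse, and it cannot settle whether the typical cell differed.

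**Figure D2:**
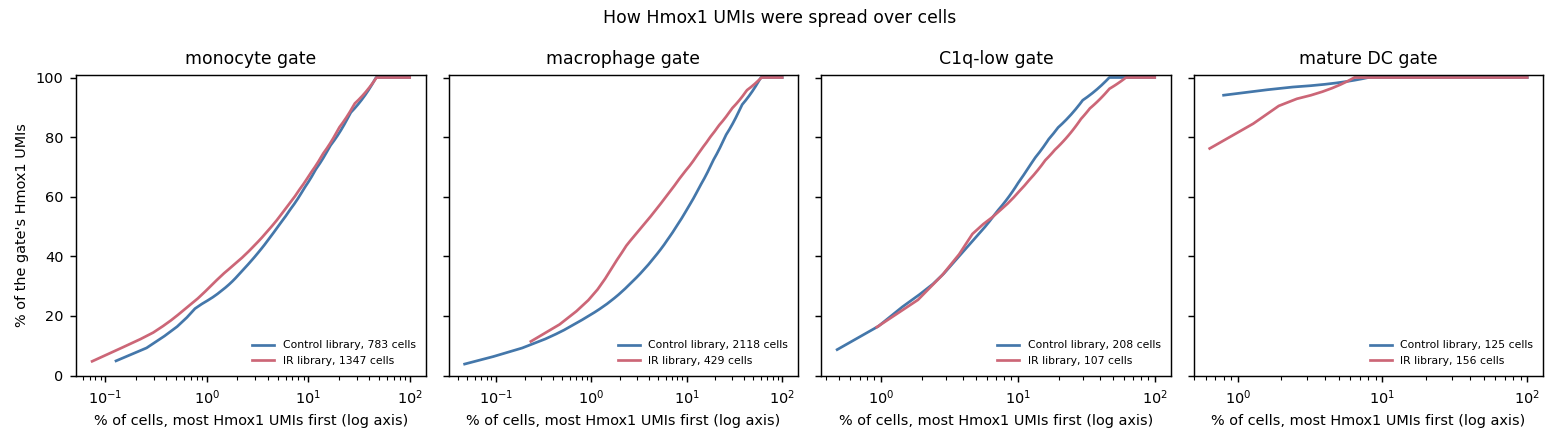
Cumulative share of the Hmox1 UMIs of a gate (y axis, %) against the share of its cells taken from the cell with most Hmox1 UMIs downward (x axis, %, log scale), for the Control and IR libraries in 4 gates. In the macrophage gate the IR line runs above the Control line (56.1% against 41.2% at the top 5%), in the monocyte gate both run close together, and in the mature DC gate the first cell alone holds 94.1% in Control and 76.2% in IR.

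Outside the monocyte and macrophage lineage, Hmox1 sums rested on very few cells. Of 219 Hmox1 UMIs in the Control mature DC gate 206 were in 1 cell, which had 33859 UMIs against a median of 7396 and also carried 102 mature DC marker UMIs, 43 T cell marker UMIs and 9 C1q UMIs. The top IR cell of that gate held 64 of 84, with 78 mature DC marker and 21 C1q UMIs, so the gate's ratio of -2.11 became -0.13 without these 2 cells. In the NK cell gate 48 of 60 Control UMIs were in 1 cell of 12281 UMIs, and IR held 6 UMIs. That cell carried 34 monocyte marker, 18 NK cell marker and 0 C1q UMIs, while the whole Control gate was at 1220 CPM of monocyte markers. In the T cell gate 35 of 79 Control UMIs were in 1 cell, and IR held 32. With doubled gate thresholds the Hmox1 ratio turned from -1.18 to 1.06 in the T cell gate and from -2.11 to 0.24 in the mature DC gate. In the Control neutrophil gate 47 of 71 were in 1 cell, and the IR neutrophil gate held 157 UMIs at 155 CPM. Whether more than 1 cell shared these barcodes was not tested.

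The cells with most Hmox1 were also rich in Gclm, Srxn1 and ferritin RNA. In the top 5% of IR macrophage-gate cells Srxn1 stood at 194 CPM against 26.6 CPM in the other cells of the gate, Gclm at 167 against 29.5 CPM and Fth1 at 47241 against 23125 CPM. Of the 71 Srxn1 UMIs of this top set 33 were in 1 cell, and without it the level was 111 CPM. In Control the same genes stood at 51.8 against 21.4, 61.1 against 28.3 and 24475 against 14626 CPM. Gclm, Srxn1, Fth1 and Ftl1 were higher in the top cells in all 6 sets formed by the monocyte, macrophage and C1q-low gates and the 2 libraries. Txnrd1 was higher in 5 sets and lower in the IR C1q-low gate, whose top set has 5 cells. For Gclm, leaving out 1 cell took the IR top sets from 59.1 to 34.2 CPM in the monocyte gate and from 242 to 139 CPM in the C1q-low gate, and for Srxn1 from 77.0 to 47.7 CPM in the latter. In Control the monocyte-gate top set went from 93.8 to 59.2 CPM for Gclm and from 84.2 to 53.8 CPM for Srxn1. These levels still lay above those of the other cells. Sod2 was not higher in the top cells of the macrophage gate, at 238 against 238 CPM in IR and 193 against 215 CPM in Control. In the monocyte gate it stood at 295 against 270 CPM in IR and 248 against 277 CPM in Control. In the C1q-low gate it stood at 418 against 305 CPM in IR and 336 against 313 CPM in Control. Without the cell with most Sod2 this last top set was at 237 CPM, below the other cells.

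**Figure D3:**
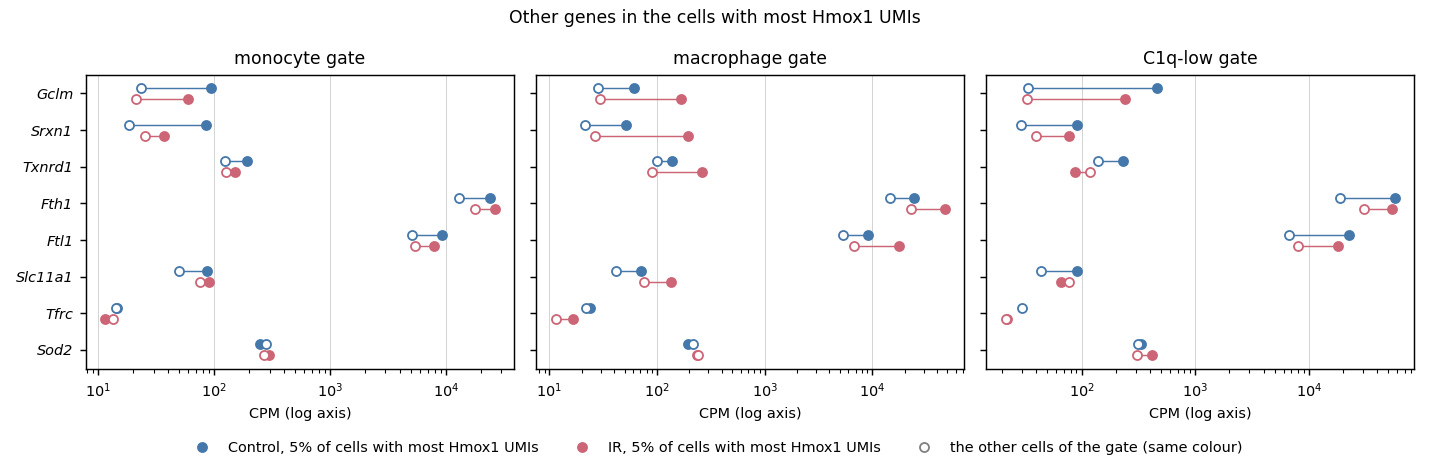
Level in CPM (x axis, log scale) of 8 genes in the 5% of cells with most Hmox1 UMIs (filled) and in the other cells of the gate (open), for Control (blue) and IR (red) in 3 gates. Gclm, Srxn1, Fth1 and Ftl1 lie to the right in the filled points of every gate and library, and Tfrc had 0 UMIs in the filled Control set of the C1q-low gate, which is left out.

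Fth1 (ENSMUSG00000024661, chromosome 19, 9980598 to 9985098) encodes the ferritin heavy chain, which oxidizes iron for storage. Its level was higher in IR in the sums of the macrophage gate, from 15326 to 24796 CPM (log2 ratio 0.69, 0.68 to 0.70), of the monocyte gate, from 13739 to 18514 CPM (0.43, 0.42 to 0.44), and of the C1q-low gate, from 20957 to 32550 CPM (0.64, 0.61 to 0.66). Here the typical cell differed as well. The median macrophage-gate cell went from 12189 to 18620 CPM and the median monocyte-gate cell from 11082 to 14479 CPM. With the smaller monocyte score the Fth1 ratios of the sums were 0.57 in the macrophage gate, 0.25 in the monocyte gate and 0.29 in the C1q-low gate. The mature DC gate had 3711 and 4998 CPM, with a median cell of 2583 and 2404 CPM. NK cells went the other way in the sum, from 2728 to 2161 CPM (-0.34, -0.40 to -0.28), with a median cell of 2050 and 2082 CPM, and the ratio was 0.32 with all gate thresholds doubled.

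Ftl1 (ENSMUSG00000050708, chromosome 7, 45457944 to 45459884, minus strand), the light chain, which helps to lay down the iron core, had smaller ratios. It went from 5637 to 7534 CPM in the macrophage gate (0.42, 0.40 to 0.43) and from 7638 to 8875 CPM in the C1q-low gate (0.22, 0.18 to 0.25, but -0.068 with the smaller monocyte score and -0.023 with doubled thresholds). The monocyte gate was at 5399 and 5645 CPM, a log2 ratio of 0.06 that turned to -0.028 with doubled thresholds and to -0.0049 with the smaller monocyte score. Both ferritin genes have near-identical processed copies in the genome, and how the authors' counting treated reads that match several copies was not checked. One copy, Ftl1-ps1, is listed apart and held 0.67% of the light-chain UMIs of the Control macrophage gate and 0.65% in IR.

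The Fth1 ratios were larger than those of Ftl1 in these gates, and the heavy-to-light UMI ratio was higher in IR. It went from 2.72 (2.70 to 2.74) to 3.29 (3.25 to 3.33) Fth1 UMIs per Ftl1 UMI in the macrophage gate, and from 2.54 (2.51 to 2.58) to 3.28 (3.25 to 3.31) in the monocyte gate. The C1q-low gate went from 2.74 to 3.67 and the neutrophil gate from 2.33 to 4.56. In the T cell gate it was 2.76 in Control and 2.46 in IR, and in the NK cell gate 1.84 and 1.68, so these gates leaned the other way. The light chain led among mast cells or basophils, with 0.39 (0.35 to 0.44) and 0.31 (0.29 to 0.34) heavy-chain UMIs per light-chain UMI. It also led in the mature DC gate in Control, at 0.79 (0.76 to 0.83), but not in IR, at 1.05 (1.02 to 1.08). A UMI ratio between genes depends on how well each message is primed at its 3′ end.

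**Figure D4:**
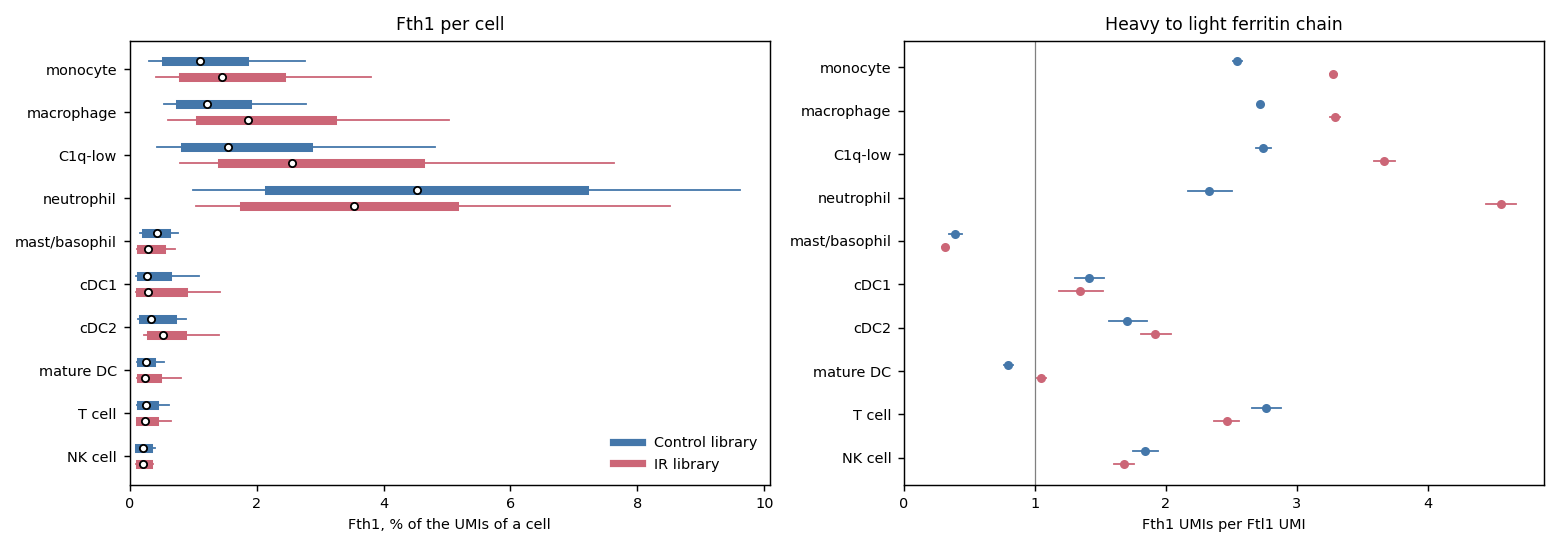
Left, Fth1 as a percentage of the UMIs of a cell by gate and library (x axis), with the median (circle), the middle 50% of cells (thick line) and the 10th to 90th percentile (thin line). Right, Fth1 UMIs per Ftl1 UMI of each gate with its exact 95% counting interval. The monocyte, macrophage and C1q-low medians lie higher in IR, and the mast cell or basophil gate lies below 1 on the right, at 0.39 and 0.31.

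Across gates, ferritin RNA was highest in the neutrophil and C1q-low gates. Together Fth1 and Ftl1 made up 6.66% of neutrophil-gate UMIs in Control and 4.17% in IR, 2.86% and 4.14% in the C1q-low gate, 2.10% and 3.23% in the macrophage gate and 1.91% and 2.42% in the monocyte gate. NK cells were the immune gate with least Fth1 in both libraries. From cDC2 down through cDC1, mast cells or basophils and mature DC to T cells in Control, neighbours in the order of Fth1 had overlapping intervals, as did T cells, mast cells or basophils and cDC1 in IR. Droplets with 10 to 99 UMIs, which hold free RNA and no cell, had 12785 CPM of Fth1 in Control and 14595 CPM in IR, above every lymphocyte and DC gate. The estimated share of free RNA was 9.82% and 8.14% of macrophage-gate UMIs and 9.68% and 4.38% of monocyte-gate UMIs, and subtracting it moved the Fth1 ratios to 0.75 and 0.52. In the T cell gate it was 1.98% and 3.37%, and the Fth1 ratio there went from 0.10 to 0.01.

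Slc40a1 (ENSMUSG00000025993, chromosome 1, 45908068 to 45926523, minus strand) encodes ferroportin, the iron exporter. It was nearly absent, with 17 UMIs in 16 of 4679 Control cells and 34 UMIs in 28 of 3410 IR cells. The macrophage gate held 5 UMIs in Control and 0 in IR, where 3 UMIs, the limit taken for a count of 0, would be 0.568 CPM, and the monocyte gate held 0 and 4. The neutrophil gate held 9 of the 17 Control UMIs, in 8 of 27 cells, and 18 of the 34 IR UMIs, in 15 of 209 cells. At 167 CPM (76.5 to 318) and 17.8 CPM (10.5 to 28.1) it was the highest gate in both libraries. Over all cells the level went from 0.409 to 0.898 CPM (log2 ratio 1.13, 0.25 to 2.07), and with IR levels at the Control mix of gates the ratio was -0.34.

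Slc11a1 (ENSMUSG00000026177, chromosome 1, 74375195 to 74386062) encodes NRAMP1, a metal transporter of phagosomes and lysosomes. It was higher in IR in the macrophage gate, at 43.4 CPM (40.7 to 46.3) and 79.1 CPM (71.7 to 87.1), a log2 ratio of 0.87 (0.69 to 1.03). The ratio was 0.54 (0.36 to 0.73) in the monocyte gate, from 52.5 to 76.5 CPM, and 0.73 (0.27 to 1.19) in the C1q-low gate, from 46.6 to 77.2 CPM. Over the 17 alternatives tried the macrophage ratio lay between 0.76 and 0.94. Its UMIs were spread widely, with at most 8 in any macrophage-gate cell of the IR library. The neutrophil gate was highest in both libraries, at 260 and 149 CPM, and the 3 monocyte and macrophage gates overlapped in IR. T cells held 4.89 and 8.88 CPM. Free droplets went from 24.4 to 45.2 CPM of Slc11a1.

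Tfrc (ENSMUSG00000022797, chromosome 16, 32608920 to 32632794) encodes transferrin receptor 1, through which cells take up iron and which dividing cells carry. Its macrophage-gate level was lower in IR, at 22.1 CPM in Control (20.1 to 24.2) and 11.7 CPM in IR (8.99 to 15.0), a log2 ratio of -0.91 (-1.32 to -0.53). Monocyte-gate levels were 14.1 and 13.1 CPM, with overlapping intervals, so in IR the macrophage gate no longer stood above it. In the T cell gate Tfrc was at 34.3 and 21.3 CPM (-0.69, -1.23 to -0.16). The NK cell gate had 18.2 and 20.5 CPM (0.17, -0.53 to 0.89), and the ratio turned to -1.49 with doubled thresholds. Over all 17 alternatives the macrophage ratio lay between -1.14 and -0.68. Iron storage RNA and Tfrc thus lay in opposite directions in the macrophage gate, the former higher and the latter lower in IR.

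Gclm (ENSMUSG00000028124, chromosome 3, 122245557 to 122270732) encodes the modifier subunit of the enzyme that starts glutathione synthesis. It was at 30.6 and 39.0 CPM in the macrophage gate (0.35, 0.11 to 0.58), at 28.8 and 24.8 CPM in the monocyte gate (-0.22, -0.49 to 0.06) and at 58.4 and 50.3 CPM in the C1q-low gate, with an IR interval (38.0 to 65.3) that overlapped the macrophage gate. In that gate 12 of 56 IR UMIs were in 1 cell, and without it the level was 40.2 CPM. Like Hmox1 it was uneven over cells: 22 of 206 macrophage-gate UMIs in IR and 34 of 358 monocyte-gate UMIs in IR were in 1 cell each. The neutrophil gate showed 186 CPM in Control from 10 UMIs, of which 9 were in 1 cell.

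Txnrd1 (ENSMUSG00000020250, chromosome 10, 82833951 to 82897712) encodes cytosolic thioredoxin reductase. It was at 128 and 129 CPM in the monocyte gate (0.01, -0.11 to 0.14) and 102 and 102 CPM in the macrophage gate (-0.01, -0.14 to 0.13), with intervals that hold 0. Neutrophils (223 and 204 CPM) and mature DC (186 and 159 CPM) had the highest levels in both libraries, with overlapping intervals in each. In the NK cell gate it went from 73.0 to 47.1 CPM (-0.63, -1.02 to -0.24). The C1q-low ratio of -0.33 became 0.19 when each cell was weighted equally.

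Srxn1 (ENSMUSG00000032802, chromosome 2, 152105516 to 152111376) encodes sulfiredoxin, which repairs overoxidized peroxiredoxins. The gate with most of it was mast cells or basophils, where 23 UMIs in 8 of 34 Control cells gave 246 CPM (156 to 369) and 137 UMIs in 39 of 64 IR cells gave 557 CPM (468 to 659). At 1000 UMIs per cell 17.6% and 31.2% of these cells had a UMI, against 2.50% and 3.50% in the macrophage gate. The macrophage gate went from 23.6 to 38.2 CPM (0.70, 0.45 to 0.93), with 33 of 202 IR UMIs in the cell that also held most Hmox1, and without the top cells the ratio was 0.47. The monocyte gate was at 23.4 and 26.4 CPM (0.17, -0.12 to 0.47).

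Sod2 (ENSMUSG00000006818, chromosome 17, 13006846 to 13040063) encodes the mitochondrial manganese superoxide dismutase, also a target of NF-κB. Its macrophage-gate level was 214 and 238 CPM (0.16, 0.07 to 0.25) and its monocyte-gate level 275 and 273 CPM (-0.01, -0.10 to 0.07). Only the mature DC gate passed 1.5-fold, from 61.3 to 105 CPM (0.77, 0.34 to 1.22). There 23 of 172 IR UMIs were in 1 cell, and without the top cells the ratio was 0.65. At 1000 UMIs per cell 7.20% of these cells had a Sod2 UMI in Control and 6.41% in IR. With gating on thinned barcodes the ratio was 0.54, below 1.5-fold. The neutrophil gate was highest in IR, at 410 CPM. In Control it was at 353 CPM from 19 UMIs, 10 of them in 1 cell, and at 173 CPM without that cell, below the C1q-low (314), monocyte and macrophage gates.

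**Figure D5:**
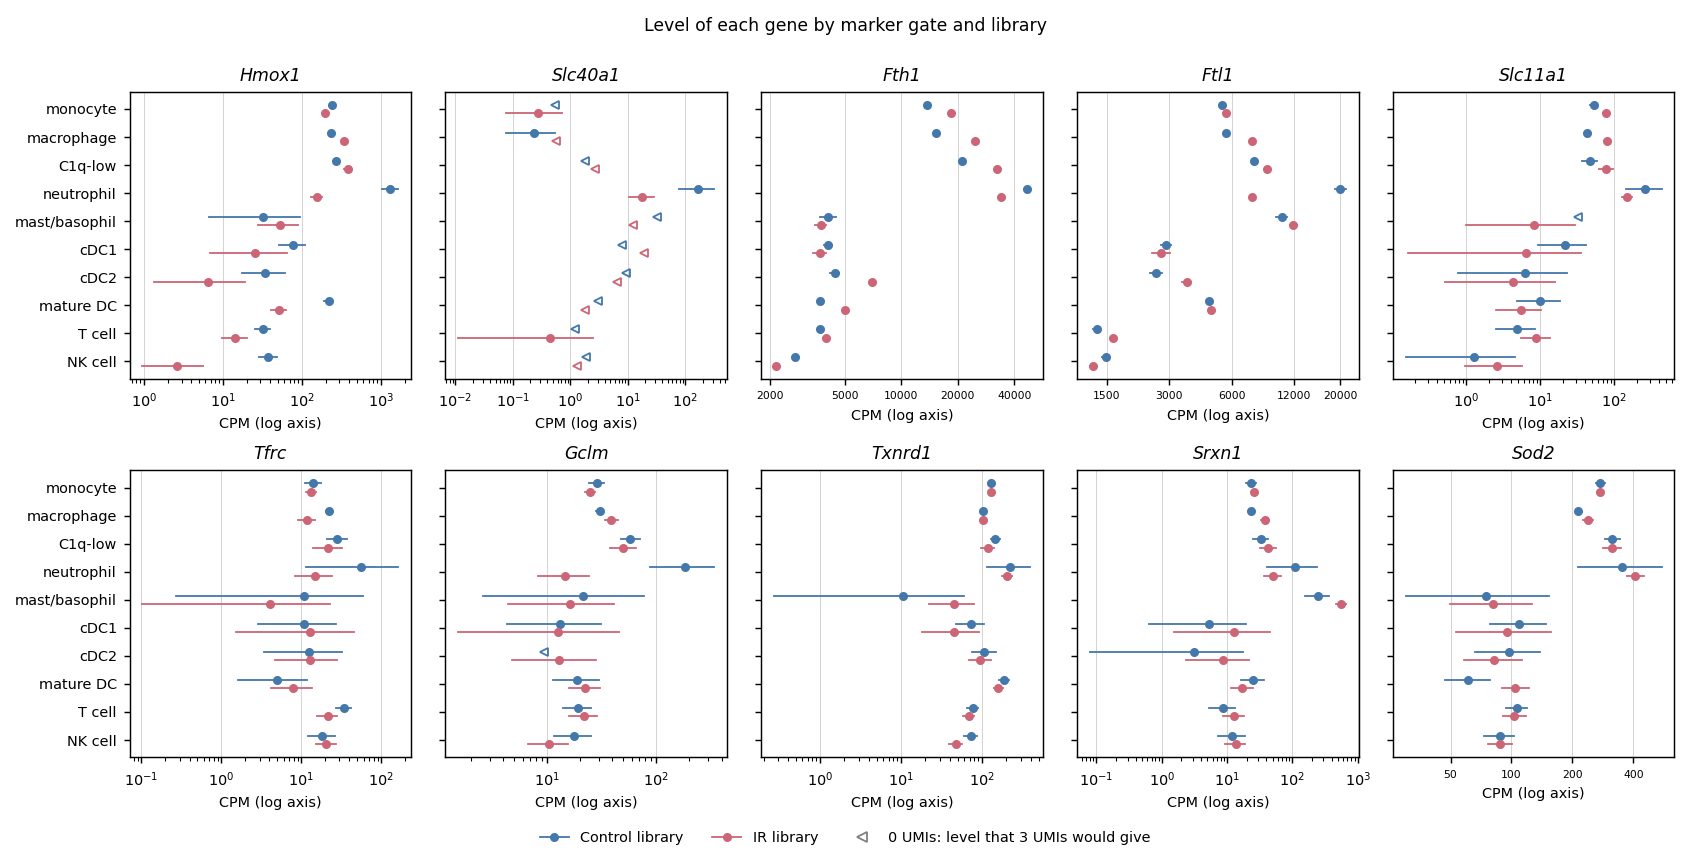
Level of each of the 10 genes in CPM (x axis, log scale) by gate (rows) for the Control (blue) and IR (red) libraries, with exact 95% counting intervals. Open triangles mark gates with 0 UMIs, at the level that 3 UMIs would give. Slc40a1 is visible mainly in the neutrophil gate, Srxn1 peaks in the mast cell or basophil gate (246 and 557 CPM), and Fth1 is highest in the neutrophil, C1q-low, macrophage and monocyte gates.

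In the remaining large gates the counts of members past 1.5-fold were small. In the C1q-low gate 2 of 9 were higher (Fth1 and Slc11a1, against 10.1% of 8079 genes and 5.54% of those with at least 100 UMIs) and 0 lower (against 10.9% and 5.54%). With the smaller monocyte score the log2 ratio of Fth1 in this gate was 0.29, below 1.5-fold. In the mature DC gate 1 of 7 was higher (Sod2, against 14.3% of 7300 genes and 7.8% of those with at least 100 UMIs) and 1 lower (Hmox1, against 8.3% and 3.69%). In the T cell gate 2 of 9 were higher (Slc11a1 and Srxn1, with 32 and 50 UMIs in both libraries together and intervals that hold 0, against 7.25% of 9275 genes and 3.54% of those with at least 100 UMIs) and 2 lower (Hmox1 and Tfrc, against 9.22% and 4.23%). In the NK cell gate 0 of 8 were higher (against 7.04% of 8419 genes and 3.3% of those with at least 100 UMIs) and 3 lower (Hmox1, Gclm and Txnrd1, against 11.7% and 5.8%), of which Gclm had an interval that holds 0 and a ratio of -0.44 without its top cell.

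Other genes of the same pathways were summarised by lists, whose counts stand beside 8.19% of all genes higher and 11.5% lower in the macrophage gate and 7.41% and 7.05% in the monocyte gate. Of 17 counted heme genes in the macrophage gate 1 was at least 1.5-fold higher and 2 lower, and in the monocyte gate 1 and 1, close to these shares. Alas1, the enzyme that begins heme synthesis, was the higher gene in both, from 74.0 to 114 CPM in the macrophage gate and from 54.7 to 87.0 CPM in the monocyte gate. The median log2 ratios of the list were -0.16 and -0.08. Cd163, the receptor for hemoglobin bound to haptoglobin, was lower in both gates and is named after its values were seen. It had 118 Control UMIs and 1 IR UMI in the macrophage gate (5.57 and 0.189 CPM). In the monocyte gate it had 14 and 9 UMIs (2.50 and 0.623 CPM). The other lower heme gene, Abcg2, a transporter, is also named after its values were seen. Its macrophage-gate level was 5.19 and 3.41 CPM (110 and 18 UMIs), a log2 ratio of -0.61 whose interval holds 0 (-1.42 to 0.12). Macrophage-gate cells with resident-type markers (Lyve1, Folr2, Cbr2, Gas6) numbered 157 in Control and 13 in IR, and their part in the Cd163 ratio was not tested.

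Of 16 counted iron genes in the macrophage gate 0 were 1.5-fold higher (8.19% of all genes) and 4 lower (11.5%), all at under 50 CPM and named after their values were seen. Among them were Aco1, an iron regulatory protein (26.6 and 16.8 CPM), and Hfe, a partner of the transferrin receptor (40.9 and 22.9 CPM). The others were Cp, the ferroxidase ceruloplasmin (5.14 and 0.946 CPM, from 109 and 5 UMIs), and the metal transporter Slc39a8. Slc39a8 was at 1.51 and 0.757 CPM (32 and 4 UMIs), with a log2 ratio whose interval holds 0 (-2.96 to 0.499). Among 15 counted in the monocyte gate 0 were higher and 1 was lower, Trf, which encodes transferrin, from 109 to 70.0 CPM (-0.64, -0.78 to -0.49). Trf was at 141 and 137 CPM in the macrophage gate.

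Of 25 counted NRF2 and thiol genes 4 were 1.5-fold higher in the macrophage gate (8.19% of all genes) and 0 lower (11.5%), with a list median of 0.10. They were Gsr, glutathione reductase (34.7 to 78.1 CPM, log2 ratio 1.17), the peroxidases Prdx6 (220 to 435 CPM, 0.98) and Prdx1 (992 to 1684 CPM, 0.76), and Glrx, a glutaredoxin (199 to 382 CPM, 0.94). Of 25 in the monocyte gate 1 was higher (7.41% of all genes), Slc7a11, the cystine importer (176 to 277 CPM, 0.65), and 0 lower. Nfe2l2, which encodes NRF2 itself, was at 218 and 193 CPM in the macrophage gate and 266 and 275 CPM in the monocyte gate. Nqo1, a textbook NRF2 target, had 7 UMIs in the macrophage gate of both libraries together.

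Of 17 counted superoxide and peroxide genes 3 were 1.5-fold higher in the macrophage gate (8.19% of all genes) and 1 lower (11.5%). Nos2, inducible nitric oxide synthase, went from 38.7 to 98.2 CPM (1.34), Prdx5, a peroxiredoxin, from 983 to 1648 CPM (0.75) and Ncf4, a subunit of the phagocyte oxidase, from 141 to 219 CPM (0.63). Gpx3, a secreted glutathione peroxidase named after its values were seen, went from 5.71 to 2.27 CPM. Of 17 in the monocyte gate 2 were higher (7.41% of all genes), Nos2 (38.8 to 82.5 CPM, 1.09) and Gpx3 (1.61 to 3.94 CPM), and 0 lower.

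Genes with the most similar pattern over the 20 sums of 10 gates and 2 libraries were ranked by Pearson's r of log2(CPM + 10) among 5345 genes, as a description of points that share libraries. Hmox1 lay closest to Atp6v1a (0.88), Zfand2a (0.88) and Cstb (0.87). Slc40a1 lay closest to Ly6g (0.997), 9830107B12Rik (0.997) and Prok2 (0.992), through the neutrophil gate. Fth1 lay closest to Clec4n (0.97), Prdx5 (0.96) and Cstb (0.96), and Ftl1 to Pygl (0.94), Ftl1-ps1 (0.94) and Atp6v0b (0.93). For Slc11a1 they were Cd300ld, Fpr2 and Cd300lf (0.95 each), and for Tfrc Srpk2 (0.86), Igf2r (0.85) and Isca1 (0.83). Gclm paired with Dubr (0.87), Arrdc3 (0.84) and Xpc (0.81), and Txnrd1 with Pde4b (0.94), Abcg1 (0.94) and Nfkbie (0.93). Srxn1 paired with Alox5 (0.94), Dnajb9 (0.93) and Lif (0.92), and Sod2 with Prdx5 (0.97), Lhfpl2 (0.94) and Fth1 (0.94).

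RNA of red blood cells, which are a source of heme, was almost absent from the sorted cells, and this does not measure heme in the tumors. In Control 12 cells held 14 UMIs of hemoglobin and Alas2. In IR 34 cells held 2642 UMIs, of which 2573 were in 1 macrophage-gate cell of 9467 UMIs that carried 9 C1qa UMIs, 209 Fth1 UMIs and 1 Hmox1 UMI. Fibroblast marker genes were at 10.3 and 9.65 CPM in the macrophage gate and those of MC38 tumor cells at 7.83 and 2.27 CPM, while its C1q genes were at 7580 and 6623 CPM and its monocyte markers at 835 and 1704 CPM. Their part in the ratios was not tested. The libraries shared 6 cell barcodes, and leaving these out moved no count of members past 1.5-fold.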

How the data were processed

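Raw UMI counts were deposited, unfiltered, as 1 matrix of 10x Chromium 3′ v3.1 data for each library (48593879 Control and 42406461 IR UMIs). The submitters' processing notes name Cell Ranger 6.0.1 and mm10, and the matrix headers Cell Ranger 4. Barcodes with at least 1000 UMIs, at least 200 genes and at most 25% mitochondrial UMIs were kept. They were gated by marker UMIs per 1000 UMIs. Thresholds were 0.5 (cDC1 and the monocyte/macrophage lineage), 1 (cDC2, NK cells, monocytes, C1q, pDC, fibroblasts), 2 (T cells, B cells, mature DC, mast cells or basophils) and 5 (neutrophils), with the larger of the monocyte and C1q scores deciding between these gates. Doublets were treated by leaving out barcodes that passed the thresholds of more than 1 lineage (247 and 187), with exceptions. For neutrophil, mast cell or basophil, cDC1, mature DC and pDC barcodes, only C1q genes counted as a sign of the monocyte and macrophage lineage. Mixtures of these cells with monocytes could thus remain in their gates. Barcodes past both the T and NK cell thresholds went to the score that was larger against its threshold. DoubletFinder, used in the study, was not run. B cells (11 and 7), pDC (9 and 9) and unassigned barcodes (276 and 196) are not described. The genes, lists and thresholds were chosen with earlier results of these data known.

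UMIs were summed per gate and library. A ratio used genes with at least 20 UMIs over both libraries in gates with at least 50 cells in each, and a list was described by its members past 1.5-fold and its median. Empty droplets had 10 to 99 UMIs, and the free RNA share was the lowest estimate over marker lists foreign to a gate. Shares of cells used barcodes thinned to 1000 UMIs. Named were the 10 members and, per pathway list and main gate, up to 4 genes with at least 50 CPM in 1 library, a ratio of at least 1.5 in size and an interval clear of 1, with the 3 genes most like each member, while others are said to be named after their values were seen. Scaling alternatives used edgeR 4.0.16 (TMM) and DESeq2 1.42.0 (size factors), the rest Python 3.11.15, scipy 1.17.1 and pandas 2.3.3. Intervals cover counting error only, with 1 library per group. The ratio and interval code was checked on simulated counts. Gene positions and UTRs are from GENCODE vM21 and promoter windows from RefSeq GRCm38.p6.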

Additional observations from a re-analysis of the deposited data

Results flagged for a closer look

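The direction of 3 genes was opposite in the macrophage and NK cell gates, with counting intervals on opposite sides of 0. The log2 ratio of Hmox1 was 0.52 in the macrophage gate and -3.85 in the NK cell gate, where 48 of 60 Control UMIs were in 1 cell and the ratio without the top cells was -2.12. That of Fth1 was 0.69 and -0.34, and that of Ftl1 was 0.42 and -0.20. The NK ratios of Fth1 and Ftl1 turned to 0.32 and 0.24 with doubled gate thresholds. With 1 library per group these differences between gates were not tested.

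In droplets that held no cell, used elsewhere only to subtract free RNA, 2 genes were higher in IR than in Control beyond counting error. Fth1 was at 14595 CPM in IR and 12785 CPM in Control, and Slc11a1 at 45.2 CPM in IR and 24.4 CPM in Control. Hmox1 was lower there in IR beyond counting error, at 131 CPM against 172 CPM in Control, and the other 7 genes had ratios whose intervals hold 0. These differences were not tested either.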

How the results depend on the processing

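No paired analysis was possible because each group is a lone library. Of the counts and medians of members in the monocyte, macrophage, T cell and NK cell gates, 183 values under the alternatives stayed within their limits (1.5 times for a count, the counting interval for a median), 20 did not and 1 reversed. The monocyte median, whose interval holds 0, changed sign under 5 of 17 alternatives, the T cell median under 1, the NK cell median under 1 and the macrophage median under 0. Of 872 ratios of single genes under the alternatives 60 changed sign, 14 of them against a counting interval clear of 0 and 46 against one that holds 0. The 872 include alternatives that could not turn a single ratio. Those with at least 50 UMIs or no minimum of UMIs per gene change only which genes are counted. The count of members 1.5-fold higher in the monocyte gate became 1 with TMM factors, DESeq2 size factors or gating on thinned barcodes. In the macrophage gate the count became 1 and the median 0.27 with the monocyte score without Ly6c2, Plac8 and Ms4a4c, and the median was 0.34 without mitochondrial and ribosomal protein genes in the total, 0.32 as a mean over cells and 0.39 without the top cell of each gene (where the count was 2), the last an alternative chosen after seeing the data, like leaving out shared barcodes. In the T cell gate the count higher became 1 without mitochondrial and ribosomal protein genes in the total, with at least 2000 UMIs, at most 10% mitochondrial UMIs, without the 6% of barcodes with most UMIs, with free RNA subtracted or at least 50 UMIs per gene, and 0 as a mean over cells. With doubled thresholds its count lower became 1 and its median 0.24. In the NK cell gate the median reversed to 0.24 with doubled thresholds, the count higher became 1 with thinned gating or no minimum of UMIs, and the count lower became 1 with thinned gating.

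Among ratios with an interval clear of 0, those that turned with doubled thresholds were Ftl1 in the monocyte (-0.028) and C1q-low (-0.023) gates, Hmox1 in the mature DC (0.24) and T cell (1.06) gates, and Fth1 (0.32) and Ftl1 (0.24) in the NK cell gate. With the smaller monocyte score they were Ftl1 in the monocyte (-0.0049) and C1q-low (-0.068) gates and Hmox1 in the C1q-low gate (-0.27). Txnrd1 in the C1q-low gate was 0.19 as a mean over cells, Fth1 in the T cell gate -0.049 without the 6% of barcodes with most UMIs, and Ftl1 in the NK cell gate 0.14 with thinned gating. Over all cells the Control mix gave 0.25 for Hmox1 and -0.34 for Slc40a1. Among ratios with an interval that holds 0, the NK cell Tfrc ratio went from 0.17 to -1.49 and the T cell Sod2 ratio from -0.036 to 0.30 with doubled thresholds, and the C1q-low Srxn1 ratio from 0.38 to -0.15 with the smaller monocyte score. Doubled thresholds also let a barcode carry more UMIs of another lineage before it was left out. The cause of the other changes was not tested.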

Other observations

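Barcodes with fibroblast markers passed the sort for CD45 in both libraries (94 in Control and 93 in IR), with medians of 17134.5 and 31209 UMIs, well above those of the other gates. They carried little of the phagocyte members. Hmox1 was at 10.9 CPM in Control and 10.8 CPM in IR, Slc40a1 at 0 UMIs in each library, and Slc11a1 at 0 and 5 UMIs. Gclm was at 48.9 CPM in Control and 64.7 CPM in IR (56.0 to 74.4), the highest Gclm level of any gate in IR, with an interval that overlapped that of the C1q-low gate. Heavy-chain ferritin was close to light-chain ferritin in UMIs, at 1.17 and 1.07.

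Slc7a11, the cystine importer, was also higher in the cells with most Hmox1. In the monocyte gate it stood at 286 CPM in the top 5% of Control cells against 168 CPM in the others, and at 453 against 260 CPM in IR. In the macrophage gate the values were 137 against 118 CPM in Control and 227 against 163 CPM in IR. In the C1q-low gate they were 1017 against 240 CPM in Control, where 70 of 100 UMIs were in 1 cell and the level without it was 339 CPM, and 462 against 290 CPM in IR, where the level without the cell with most was 264 CPM, below the others. Leaving out that cell was chosen after seeing the data, and no test was made.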
